A study of Caenorhabditis elegans with 2 samples.

Results

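The piRNA-rich spans of chromosome IV of Caenorhabditis elegans held 2867 of the 30000 candidate regions listed for the nuclear hormone receptor NHR-28, 989 in the left span and 1878 in the right one. A region was counted when its summit lay on IV between positions 4500000 and 7000000 (left span) or between 13500000 and 17200000 (right span) of ce11. Position alone chose the regions, and the rule used no measured value. The spans themselves were chosen with earlier results of these data known. The receptor carried an eGFP tag and was mapped by ChIP-seq, the sequencing of immunoprecipitated chromatin, in L1 larvae, the first larval stage, of strain OP317. The genotype label is unc-119(ed3) III; wgIs317, where wgIs317 is an integrated transgene and unc-119 is commonly rescued to mark transgenic worms. Whole organisms, males and females pooled, formed 1 group of 2 biological replicates, with nothing to compare it with. Whole animals mix all tissues, so the cells a region comes from cannot be told apart, and the sources used here do not give the promoter of the tagged gene.

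piRNAs are small RNAs that guide Argonaute proteins of the PIWI class to silence foreign sequences in the germline. In C. elegans they are called 21U-RNAs, for their length and their first base, and a great many separate tiny genes encode them, most of them packed into the broad clusters of chromosome IV. Many carry an upstream element with the core CTGTTTCA, known as the Ruby motif, and their transcription needs the small nuclear RNA activating complex. Newly hatched L1 larvae hold hardly any germ cells. NHR-28 is a zinc-finger transcription factor of the nuclear hormone receptor family, which is unusually large in nematodes.

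The annotation bore out the label of the spans. Of 15363 annotated piRNA genes, 14204 (92.5%) started in them, 2816 in the left span and 11388 in the right. That is 2291 piRNA genes per Mb, against 45.2 in the rest of IV and 7.49 on the other autosomes. All of them were annotated as 21 bases long, and 96.2% began with T in the DNA (U in the RNA). TGTTTC, the inner part of the Ruby core, lay 30 to 60 bp upstream on the piRNA's own strand in 56.2% of the piRNA genes of the spans, and the full CTGTTTCA in 34.7%. Protein-coding genes were sparser than on the rest of the autosomes, at 152 per Mb against 207 in the rest of IV and 215 on the other autosomes. X was level with the spans, at 154 per Mb. The left span had 193 per Mb and the right span 124.

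The sequences below show what a piRNA gene under a high candidate region looks like. They belong to the nearest piRNA genes of the 5 highest regions with a piRNA gene start within 200 bp of the summit. Each runs 5′ to 3′ on the strand of the piRNA, the forward strand in all 5 cases, from 70 bases before the piRNA to 10 after it, in the RefSeq genome sequence of WBcel235, the assembly of ce11. Capitals mark the 21 bases of the piRNA and, where it occurs upstream, TGTTTC.
21ur-4109, chrIV:6083690-6083790: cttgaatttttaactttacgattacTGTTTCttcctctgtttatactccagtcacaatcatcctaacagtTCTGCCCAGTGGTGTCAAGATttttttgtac
21ur-4423, chrIV:14361628-14361728: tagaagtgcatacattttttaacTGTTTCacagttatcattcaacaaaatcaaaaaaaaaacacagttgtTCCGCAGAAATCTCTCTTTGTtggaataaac
21ur-2738, chrIV:16810518-16810618: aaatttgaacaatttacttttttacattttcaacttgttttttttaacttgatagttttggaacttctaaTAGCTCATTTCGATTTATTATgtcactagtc
21ur-2376, chrIV:15901480-15901580: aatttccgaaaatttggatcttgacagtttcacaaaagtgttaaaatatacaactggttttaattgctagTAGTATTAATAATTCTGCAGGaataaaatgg
21ur-5782, chrIV:14616994-14617094: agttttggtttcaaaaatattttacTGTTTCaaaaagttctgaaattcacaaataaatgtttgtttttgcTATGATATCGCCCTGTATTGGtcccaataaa
In 3 of the 5 the capitals show TGTTTC, with 39, 41 and 39 bases between it and the piRNA of 21ur-4109, 21ur-4423 and 21ur-5782. In the other two those letters do not occur in the 70 bases shown. The summits lay 70, 57, 17, 140 and 9 bp from the starts of 21ur-4109, 21ur-4423, 21ur-2738, 21ur-2376 and 21ur-5782.

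The thresholded list, the authors' final peaks, held 5 regions of the spans, and their summit sequences are shown because they can be set against those piRNA genes. Each is the forward strand of the same assembly, 121 bases centred on the summit, with capitals for any match, on either strand, to 1 of 4 motifs. These are TGTTTC from the Ruby core, the simple repeat GAGAGA, the sequence AGGTCA that many nuclear receptors bind, and the plain T tract TTTTTTTT.
Upstream of Y17G9B.5, chrIV:4750035-4750155: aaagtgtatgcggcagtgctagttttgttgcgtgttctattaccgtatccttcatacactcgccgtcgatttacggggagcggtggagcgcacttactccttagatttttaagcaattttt
Upstream of dld-1, chrIV:14464151-14464271: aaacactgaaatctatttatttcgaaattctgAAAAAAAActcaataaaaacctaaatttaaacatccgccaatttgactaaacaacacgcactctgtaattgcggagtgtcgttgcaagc
Intron of skn-1, first peak, chrIV:5656086-5656206: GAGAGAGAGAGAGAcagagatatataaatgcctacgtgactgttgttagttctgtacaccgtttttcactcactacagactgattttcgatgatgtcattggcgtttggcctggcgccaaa
Intron of skn-1, second peak, chrIV:5657166-5657286: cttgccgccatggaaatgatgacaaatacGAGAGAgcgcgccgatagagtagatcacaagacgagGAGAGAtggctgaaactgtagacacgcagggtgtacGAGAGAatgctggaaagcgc
Upstream of ugt-20, chrIV:6083770-6083890: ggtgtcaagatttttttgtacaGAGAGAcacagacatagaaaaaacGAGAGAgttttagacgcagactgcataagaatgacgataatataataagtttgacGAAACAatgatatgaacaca
GAGAGA occurred in 3 of these windows, both in skn-1 and the one at ugt-20. Its share in windows of this size elsewhere was not computed, so no excess is read from this count. The window at dld-1 held a T tract on the reverse strand, and that at Y17G9B.5 held none of these letters. AGGTCA occurred in none of the 5, and TGTTTC, on the reverse strand, only in the one at ugt-20, which is also the only one of the 5 with a piRNA gene start within 200 bp.

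Each list of candidate regions, 1 per replicate and 1 pooled, holds 30000 regions by construction, peaks together with background, so a density is a share of a fixed total and most regions are weak. The deposited -log10 q of the regions in the spans had a median of 0.116 in the pooled list, 0.128 in replicate 1 and 0.300 in replicate 2. In the pooled list 22 of the 2867 had a q of 0.05 or less (0.767%), against 0.984% of all nuclear regions, 1.00% in the rest of IV and 1.04% on the other autosomes. The shares were 1.13% in the spans against 1.1% of nuclear regions in replicate 1, and 6.41% against 5.5% in replicate 2. All regions of a list have the same width, 330 bp in the pooled list, 324 bp in replicate 1 and 310 bp in replicate 2, and the signal is the authors' value, which ranks regions within 1 list only. With 1 group there is no test between areas. The main values are given in both replicate lists, and a value given without a list is from the pooled one. Intervals are exact 95% binomial ones that cover counting error only.

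Candidate regions were denser in the spans than elsewhere on IV and on the other autosomes in all 3 lists. The pooled list held 462 regions per Mb in the spans, against 299.7 in the rest of IV and 281 on the other autosomes. In replicate 1 the densities were 412 per Mb in the spans, 297 in the rest of IV and 286 on the other autosomes. In replicate 2 they were 425, 302 and 283 per Mb in the same order. The ratio of the spans to the rest of IV was thus 1.54 in the pooled list, 1.39 in replicate 1 and 1.41 in replicate 2, and the ratio to the other autosomes was 1.65, 1.44 and 1.50. The spans make up 6.18% of the nuclear genome and held 9.56% of its regions in the pooled list, 8.53% in replicate 1 and 8.80% in replicate 2. Only 181 of the 2867 regions were lost when overlapping ones were merged.

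The right span was the denser one. It held 508 regions per Mb in the pooled list, 456 in replicate 1 and 459 in replicate 2, and the left span held 396, 348 and 376. The left span lies nearer the centre of the chromosome and the right one on an arm. Windows at the same fractions of length on I, II, III and V held 226 to 287 regions per Mb for the left span and 285 to 381 for the right span in the pooled list. On each of these 4 chromosomes the window matched to the right span was the denser one in the pooled list and in replicate 1, but on V in replicate 2 it held 260.3 regions per Mb against 280.2 in the window matched to the left span. Both spans lay above all 4 of their matched windows, and in each replicate list they did so as well. The mirror windows on IV itself, at the same distance from the opposite end, held 257 regions per Mb for the left span and 338 for the right. In replicate 1 these values were 261 and 323, and in replicate 2 289 and 312. When nuclear chromosomes were divided into 97 windows of 1 Mb, the 4 densest in each list were those of IV from 14 to 15, 16 to 17, 15 to 16 and 5 to 6 Mb, with 563, 514, 489 and 452 regions in the pooled list, and all 4 lie inside the spans.

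**Figure D1:**
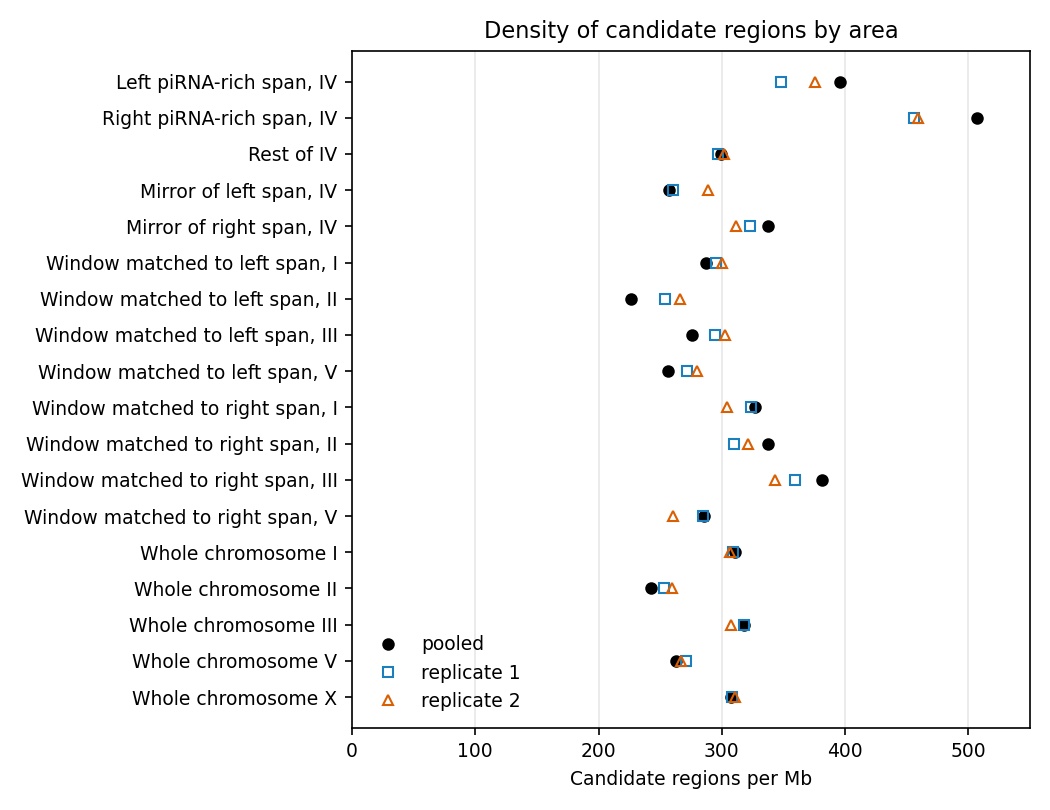
Candidate regions per Mb (horizontal axis) in the 2 piRNA-rich spans, in the rest of IV, in mirror and matched windows and on whole chromosomes, with 1 symbol for each list. Both spans lie to the right of their matched windows in every list, with the right span at 456 to 508 regions per Mb.

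The fall in density at the borders was checked over 500 kb on either side. At the start of the right span the density rose from 300 to 422 regions per Mb going in, while piRNA genes rose from 22.0 to 2232 per Mb. In replicate 1 it rose from 288 to 390, and in replicate 2 from 298 to 392. At the start of the left span it rose from 230 to 334 regions per Mb, and piRNA genes rose from 22.0 to 536 per Mb. The replicates had 226 and 296 in replicate 1, and 232 and 336 in replicate 2. Going out at the end of the left span, regions fell from 332 to 254 per Mb in the pooled list, from 318 to 298 in replicate 1 and from 276 to 262 in replicate 2, so this border was shallower in the replicates than in the pooled list. The end of the right span was no border of this kind. The short stretch from there to the end of the chromosome held 517 regions per Mb, against 486 inside, and still had 596 piRNA genes per Mb. Both replicates, with 514 and 490 outside and 434 and 426 inside, had this order as well.

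Within the spans, bins of 100 kb held 18 to 76 regions in the pooled list, with a median of 47.5 over 62 bins. The fullest bin, from 14.6 to 14.7 Mb, held 76 regions in the pooled list, 69 in replicate 1 and 67 in replicate 2, and 407 piRNA genes. The emptiest, from 13.5 to 13.6 Mb, held 18, 23 and 27 regions and 24 piRNA genes. Across bins the number of regions ranked with the number of piRNA genes, with Spearman's rho of 0.74 in the pooled list, 0.72 in replicate 1 and 0.67 in replicate 2. The relation was closer in the left span (rho = 0.84 over 25 bins, pooled) than in the right (0.49 over 37 bins), and was not tested between them. Bins share libraries and base composition, and piRNA genes themselves ranked against GC content, with rho = -0.74. The number of regions ranked against GC content with rho = -0.59 and against the number of protein-coding gene starts with rho = -0.49. Which of these goes with the number of regions was not tested. Between replicates the counts per bin ranked together with rho = 0.78.

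**Figure D2:**
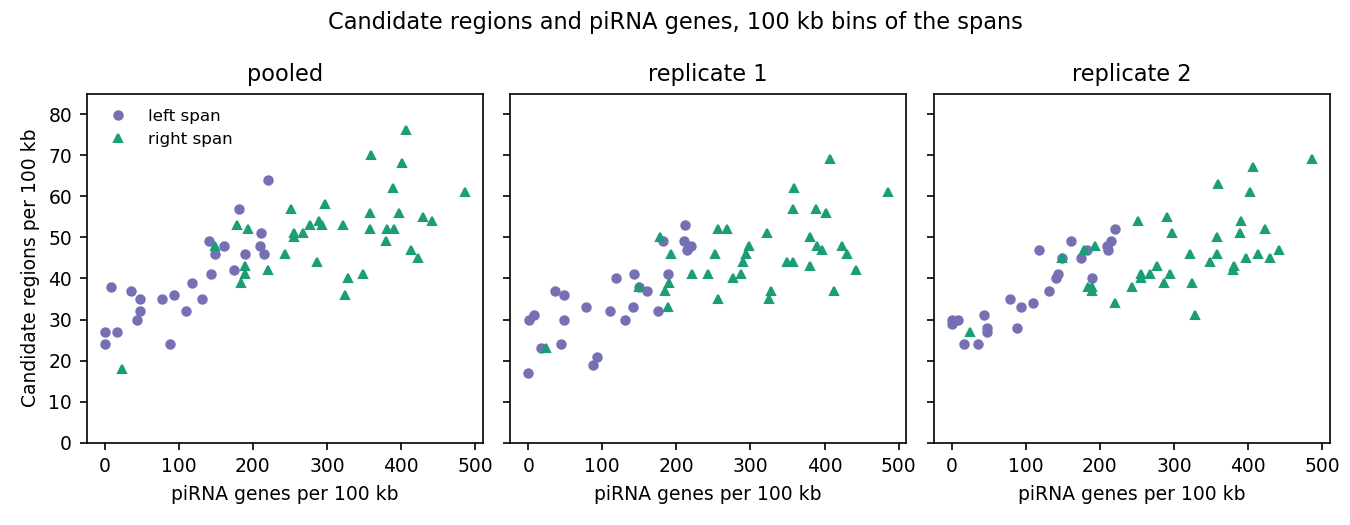
Candidate regions per 100 kb (vertical axis) against annotated piRNA genes per 100 kb (horizontal axis) for the 62 bins of the spans, in the pooled list and in each replicate. Each point is 1 bin, and bins with more piRNA genes held more regions in all 3 panels.

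Summits lay close to piRNA genes more often than positions of the spans taken at even steps. In the pooled list 1895 of 2867 regions (66.1%, 64.3 to 67.8) had a piRNA gene start within 200 bp, in replicate 1 63.7% and in replicate 2 64.6%. Of the 31000 windows of 200 bp that tile the spans, 45.3% had one. The shares were 46.2% in the left span, where 29.1% of tiles had one, and 76.6% in the right, where 56.3% did. In the rest of IV, 2.42% of regions and 1.50% of tiles had one. The median distance from a summit to the nearest piRNA gene start was 113 bp in the pooled list, 119 bp in replicate 1 and 120 bp in replicate 2, against 248 bp for tiles.

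Summits showed no marked preference for 1 side of the piRNA gene. The nearest piRNA start had its summit within 100 bp on one side in 23.4% of regions and within 100 bp on the other in 22.6%, in the pooled list. In replicate 1 the shares were 22.4% and 21.9%, and in replicate 2 23.6% and 20.9%. Seen from the genes, 3992 of the 14204 piRNA genes (28.1%) had a summit within 200 bp, where 18.0% of the bases of the spans did. These shares were 24.7% and 16.2% in replicate 1, and 25.2% and 16.7% in replicate 2. Most piRNA genes therefore had no candidate region near them.

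The Ruby core followed the piRNA genes. CTGTTTCA, on either strand of a 200 bp window, was present at 22.1% of summits of the spans (20.6 to 23.7), at 21.9% in replicate 1 and 22.3% in replicate 2. Tiles of the spans had it in 14.5%, regions of the rest of IV in 2.30%, regions of the other autosomes in 0.903% and tiles of the whole nuclear genome in 2.00%. Among windows with a piRNA gene start within 200 bp, 31.8% of summits and 27.8% of tiles had it, and among those without one, 3.40% and 3.42%. In replicates 1 and 2 it was present at 31.8% and 31.7% of summits near a piRNA gene, and at 4.42% and 4.93% of those without one. Where a summit window held the motif, its median distance from the summit was 46 bp, against 47 bp from the centre of a tile. TGTTTC, which is contained in the longer motif, was present at 46.3% of summits and in 36.5% of tiles, and in 19.8% of all nuclear tiles.

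The other 3 motifs were no more frequent at summits than in tiles of the spans, except for the T tract. TTTTTTTT was present at 39.5% of summits of the spans against 28.5% of their tiles, and at 33.6% of summits in the rest of IV against 22.1% of tiles there and 22.7% of all nuclear tiles. GAGAGA was present at 7.46% of summits and 8.67% of tiles of the spans, at 10.04% of summits in the rest of IV, and in 9.95% of all nuclear tiles. Of the regions with GAGAGA in the spans, 19.6% were among the 3000 highest of the pooled list, against 11.7% of those without it. These shares were 14.2% and 12.6% in replicate 1, and 17.1% and 11.7% in replicate 2. The rest of IV had 15.3% and 9.72% in the pooled list, so this was not particular to the spans. AGGTCA was present at 2.55% of summits and 3.89% of tiles of the spans, at 4.14% and 4.99% in the rest of IV, and in 4.79% of all nuclear tiles. In replicate 1 and replicate 2 AGGTCA was at 2.66% and 2.69% of summits in the spans, so both lists kept it under the share of tiles. Tiles were not matched to summits for GC content, and the part of base composition in these motif shares was not tested.

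The regions of the spans were AT-rich, and so was the ground they stood on. The GC content of summit windows had a median of 27.5% in the spans, 30% in the rest of IV and 30.5% on the other autosomes in the pooled list. Tiles had medians of 32%, 35% and 35.5% in the same areas. In each area the density fell steeply with GC content. In the spans the pooled density was 992 regions per Mb in windows under 25% GC, 730.3 between 25% and 30%, 353 between 30% and 35%, 222 between 35% and 40%, and 108 at 40% or more. In the rest of IV these densities were 796, 608, 303, 184 and 121 per Mb, so the spans were denser in all classes but the last, and this held in each replicate. Windows under 25% GC made up 11.4% of the spans and 5.46% of the rest of IV, and windows between 25% and 30% made up 27.8% and 15.8%.

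When the density of the rest of IV was weighted to the GC content of the spans, the ratio of the spans to it went from 1.54 to 1.15 in the pooled list, and was 1.08 in replicate 1 and 1.098 in replicate 2. Against the other autosomes it went from 1.65 to 1.22, and was 1.12 and 1.15 in the replicates. The right span kept ratios of 1.17, 1.12 and 1.102 to the rest of IV in the pooled list, replicate 1 and replicate 2. The left span had 1.12, 1.007 and 1.089, so in replicate 1 it was hardly denser than the rest of IV at the same GC content. The ratios also differed with the distance to piRNA genes. Weighted in the same way, the parts within 200 bp of a piRNA gene start had 1.3 times the density of the rest of IV in the pooled list, 1.203 in replicate 1 and 1.245 in replicate 2. The parts with no piRNA gene start that near had 0.945, 0.917 and 0.903 times that density. Without weighting, the 2 kinds of part held 675 and 287 regions per Mb in the pooled list, 580.2 and 273 in replicate 1, and 607 and 275 in replicate 2.

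Within each GC class, too, the parts near piRNA genes were denser in all 3 lists. Under 25% GC they held 1117 regions per Mb against 635 in the parts without a piRNA gene, in the pooled list. In replicate 1 the values were 831 and 476, and in replicate 2 1016 and 673. Between 30% and 35% GC the gap was smaller, with 389.5 against 322 in the pooled list, 419 against 351 in replicate 1 and 363 against 269 in replicate 2. Repeat-masked bases made up 41.3% of the average tile in the spans against 36.0% in the rest of IV. In the average summit window they made up 48.7% against 46.3%. Only the right span was above the rest of IV, with 45.4% in tiles and 51.3% in summit windows, against 35.4% and 43.8% in the left. Summit windows averaged 51.3% in the matched windows on the other autosomes and 50.9% in the mirror windows on IV. The part of masking in the density was not tested, and GC content and piRNA genes, which move together, were set apart only by the classes above.

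**Figure D3:**
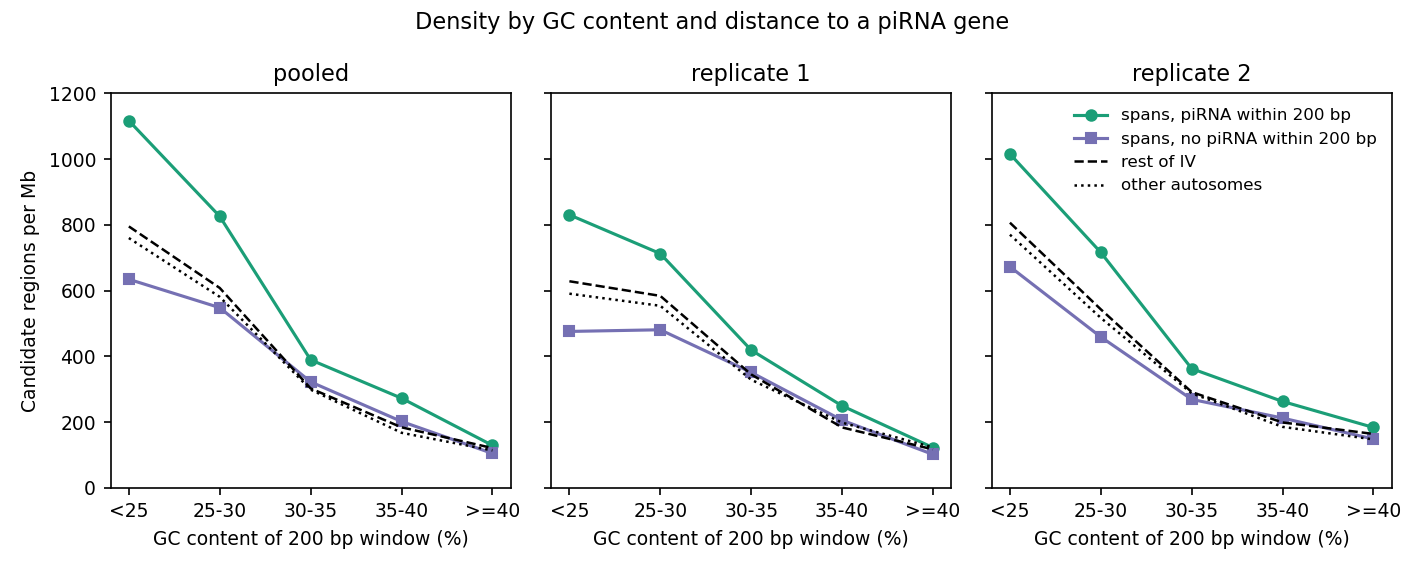
Candidate regions per Mb (vertical axis) by GC content of 200 bp windows (horizontal axis) for parts of the spans with and without a piRNA gene start within 200 bp, for the rest of IV and for the other autosomes, 1 panel per list. The line for parts near piRNA genes runs from 1117 regions per Mb under 25% GC to 129 at 40% or more in the pooled list and lies above the other 3 throughout, except at 40% or more in replicate 1, where the other autosomes are level with it (122 and 123).

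By annotation, 58.4% of summits of the spans were intergenic, 32.2% lay in introns, 5.65% in coding sequence, 2.96% in 3′ untranslated regions and 0.767% in 5′ untranslated regions. The tiles of the spans were 50.6% intergenic, 29.5% intronic and 17.0% coding. The spans were denser than the rest of IV in each of the 3 large classes, with 534 against 374 regions per Mb in intergenic sequence, 504 against 340 in introns and 154 against 115 in coding sequence. The same order held against the other autosomes, which had 338, 337 and 109 per Mb, and both orders held in each replicate. Fewer summits lay near protein-coding gene starts, mainly in the right span. There 18.6% of summits (18.9% in replicate 1) lay within 1 kb of such a start. The left span had 34.4% (32.5% in replicate 1), and X had 30.8%. The share within 1 kb of one was 24.0% in the spans (23.5% in replicate 1, 24.3% in replicate 2), 37.3% in the rest of IV and 38.9% on the other autosomes. Tiles had shares of 26.9%, 35.5% and 36.9% in these areas, so summits of the spans lay near gene starts slightly less often than tiles, and elsewhere slightly more often.

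Other noncoding genes were rarely near these summits. Within 200 bp of a summit, 46 regions had the start of a gene annotated as ncRNA, 21 a pseudogene, 6 a tRNA, 5 a miRNA, 3 a snoRNA, 2 a snRNA and 2 a lincRNA. None had an antisense RNA gene, and no ribosomal RNA gene is annotated in the spans. The share with an ncRNA gene was 1.60% in the spans and 2.22% in the rest of IV. For snoRNA genes the share was 0.105% in the spans, 0.355% in the rest of IV and 0.285% on the other autosomes. For snRNA genes it was 0.0698%, 0.0886% and 0.0876%, and for lincRNA genes 0.0698%, 0.0886% and 0.0711%. Few such genes are annotated in the spans, with 18 snoRNA, 16 snRNA and 9 lincRNA genes. The share with a miRNA gene was 0.174% in the spans, 0.148% in the rest of IV and 0.0876% on the other autosomes. For pseudogenes these shares were 0.732%, 0.532% and 0.690%, and for tRNA genes 0.209%, 0.148% and 0.219%. In the replicates the pseudogene share of the spans was instead below that of the other autosomes, with 0.665% against 0.839% and 0.569% against 0.825%. The tRNA share was instead above it, with 0.274% against 0.194% and 0.265% against 0.223%. So was the snRNA share, with 0.117% against 0.0914% and 0.0758% against 0.0543%. In replicate 2 the miRNA share was below that of the rest of IV, with 0.114% against 0.147%. These classes had few regions, so their order is not read as a difference.

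Signal differed little between the spans and the other areas. Its median in the pooled list was 17.5 in the spans, 17.2 in the rest of IV and 16.9 on the other autosomes. In replicate 1 the medians were 11.9 in the spans, 11.4 in the rest of IV and 11.2 on the other autosomes, and in replicate 2 they were 9.19, 9.09 and 8.92. The ratio of the spans to the other autosomes was therefore 1.03 in the pooled list. Within the spans, regions with a piRNA gene start within 200 bp had a median of 17.9 and the others one of 17.1. These medians were 12.03 and 11.48 in replicate 1 and 9.31 and 9.0 in replicate 2. The left span had close medians, 17.24 and 17.1 (11.69 and 11.65 in replicate 1, 9.26 and 9.28 in replicate 2). The right span had 18.04 and 17.21 (12.16 and 11.35 in replicate 1, 9.33 and 8.73 in replicate 2). Of the regions near a piRNA gene 11.7% were among the 3000 highest of the pooled list, against 13.6% of the others. The replicates had the other order, with 13.3% against 11.8% in replicate 1 and 12.6% against 11.5% in replicate 2. The 90th percentile was 27.3 in the spans and 25.7 on the other autosomes, but the 99th was 38.7 against 41.1. In the replicates the gap at the 99th percentile was smaller, with 26.02 against 26.17 in replicate 1 and 21.1 against 21.6 in replicate 2.

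Of the regions of the spans, 12.3% were among the 3000 highest of the pooled list, against 9.92% of all nuclear regions, 10.3% in the rest of IV and 9.34% on the other autosomes. In replicate 1 the share was 12.7% against 9.91% of nuclear regions, and in replicate 2 12.2% against 9.93%. Read the other way, the spans held 11.9% of the 3000 highest nuclear regions of the pooled list, 11.3% of the highest 1000, 7.33% of the highest 300 and 3.00% of the highest 100 (0.623 to 8.52). In replicate 1 the shares were 11.0%, 10.7%, 8.67% and 7.0%, and in replicate 2 10.7%, 10.3%, 6.0% and 6.0%. At 100 regions the pooled interval lies below the 9.56% of all nuclear regions that the spans held. The intervals of the replicates, 2.86 to 13.9 and 2.23 to 12.6, include their 8.53% and 8.80%, so sets this small do not place the spans above or below their share.

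**Figure D4:**
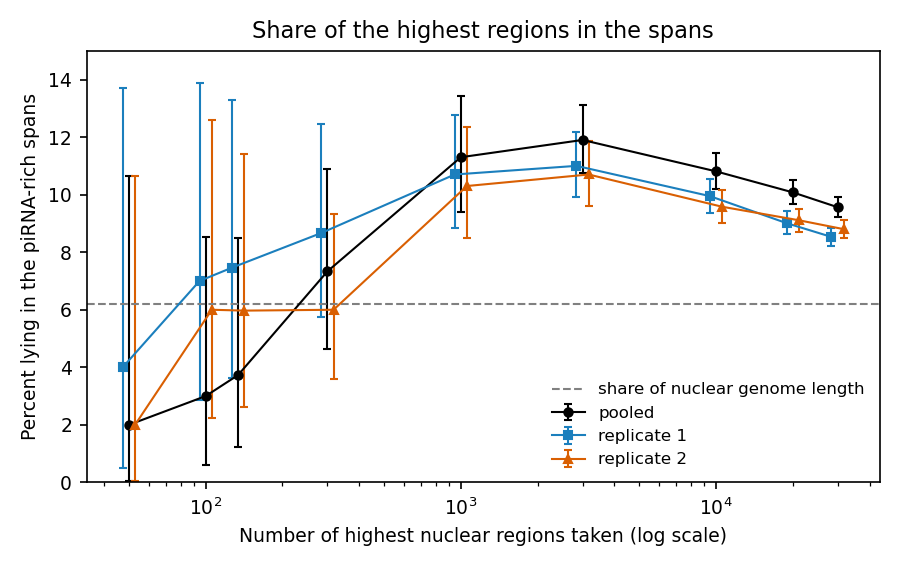
Percent of the highest nuclear regions of each list that lie in the piRNA-rich spans (vertical axis) against the number of regions taken (horizontal axis, log scale), with exact 95% binomial intervals as bars and the spans' share of genome length, 6.18%, as a dashed line. The shares lie above the line from 1000 regions upward, and the intervals of the sets of 50 to 134 regions include it.

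Few regions of the spans reached the thresholded list. It held 5 of the 2867 (0.174%, 0.0567 to 0.407), where 0.447% of all nuclear regions, 0.236% of those in the rest of IV and 0.498% of those on the other autosomes were in it. The left span had 4 of 989 (0.404%, 0.110 to 1.03) and the right span 1 of 1878 (0.0532%, 0.00135 to 0.296). Per length, the spans held 0.806 thresholded peaks per Mb, the rest of IV 0.708 and the other autosomes 1.40. The 159 highest regions of replicate 1 came to 1.61, 0.531 and 1.37 per Mb in the same areas. Those of replicate 2 came to 1.29, 1.33 and 1.26. Only the pooled list thus had fewer per Mb in the spans than on the other autosomes. The shares of regions also had a different order in the replicate lists. Of the 159 highest regions of replicate 1, 10 lay in the spans, which is 0.391% of its regions there, against 0.44% of nuclear regions, 0.179% in the rest of IV and 0.479% on the other autosomes. Of those of replicate 2, 8 did, or 0.303%, against 0.45% of nuclear regions, 0.44% in the rest of IV and 0.445% on the other autosomes. The share of the spans was below the nuclear share in all 3 lists, its interval reached that share in both replicates (0.188 to 0.718 and 0.131 to 0.597), and its place against the rest of IV turned between replicates. The regions just inside and just outside the threshold in the spans had signals of 49.8 (rank 150) and 47.3 (rank 172). Over the whole pooled list these were 48.94 (rank 159) and 48.85 (rank 160). The thresholded list thus held the 159 highest pooled regions, and its share is a share of the highest regions, not a separate measure.

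The highest of the 5 peaks, at IV 4749930 to 4750259, had a signal of 116.7 and rank 25 in the pooled list. It had a signal of 71.7 in replicate 1 (rank 27) and of 39.6 in replicate 2 (rank 41), so both replicates placed it near their top. Its summit was intergenic, 145 bp upstream of the start of Y17G9B.5, and its nearest piRNA gene, 21ur-11429, started 17629 bp away. The peak upstream of dld-1, the gene of dihydrolipoamide dehydrogenase, lay at IV 14464046 to 14464375, 306 bp from the start and 859 bp from 21ur-3995. Its signal was 62.8 (rank 82), with 29.5 in replicate 1 (rank 181) and 29.7 in replicate 2 (rank 75), and the ncRNA gene LLC1.120 started within 200 bp. It was the 1 thresholded peak of the right span.

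A pair of neighbouring peaks lay in introns of skn-1, which encodes a transcription factor of oxidative stress and detoxification responses. The first, at 5655981 to 5656310, lay 2197 bp from the nearest protein-coding start, that of clec-178, and had a signal of 55.1 (rank 107), with 47.8 in replicate 1 (rank 40) and 20.8 in replicate 2 (rank 424). The second, at 5657061 to 5657390 and 3158 bp from a start of skn-1 itself, had 49.8 (rank 149), with 36.7 in replicate 1 (rank 89) and 18.3 in replicate 2 (rank 843), and the ncRNA genes T19E7.26 and T19E7.27 started within 200 bp. Both stood higher in replicate 1 than in replicate 2. The nearest piRNA gene, 21ur-15174, started 7321 and 8401 bp away. The peak at 6083665 to 6083994 lay 230 bp upstream of ugt-20, of the UDP-glucuronosyltransferase family, and 70 bp from 21ur-4109. Its signal was 49.8 (rank 150), with 27.9 in replicate 1 (rank 225) and 20.99 in replicate 2 (rank 399).

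Apart from the thresholded peaks, which were drawn from both replicates, the regions among the 10 highest of the spans repeated less well. The one 83 bp upstream of H35B03.2 had a signal of 47.3, with rank 3495 in replicate 1 and 106 in replicate 2. The one 208 bp upstream of mrps-7, a gene of the mitochondrial ribosome, had 47.3, with ranks 139 and 4780. The region in an intron of ssu-2, 57 bp from 21ur-4423, had 46.8, with rank 138 in replicate 1 and 19576 in replicate 2. The intergenic region 17 bp from 21ur-2738 had 46.7, with ranks 577 and 1394. The one 1289 bp upstream of bec-1, an autophagy gene, had 46.7, with ranks 118 and 5579.

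Of the 5 highest regions with a piRNA gene within 200 bp, the 2 not yet described were that at Y105C5B.5 and that in an intron of dmd-6, a gene of the DM-domain family. At Y105C5B.5, 140 bp from 21ur-2376, the signal was 44.2, with rank 96 in replicate 1 and 18903 in replicate 2. In dmd-6, 9 bp from 21ur-5782, it was 44.0, with ranks 602 and 2300. Only the region at 21ur-4109 was thus among the 500 highest of both replicates. The 2 regions on the inner side of each border had signals from 13.6 to 30.2 and the 2 on the outer side from 13.5 to 25.5. The inner ones include summits in introns of tbc-9 and gbb-2, upstream of rfth-1 and near seld-1, and the outer ones a summit 583 bp into trxr-1, the gene of a thioredoxin reductase.

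Pooled regions of the spans overlapped regions of both replicate lists somewhat more often than others did, and their heights in the 2 lists hardly followed each other. The pooled list was made from both replicates, so these overlaps are no independent repeat. Of the 2867, 1969 (68.7%) overlapped a region of replicate 1, 1821 (63.5%) one of replicate 2, and 1132 (39.5%, 37.7 to 41.3) one of each. In the rest of IV 35.5% overlapped both, and on the other autosomes 34.0%. The replicate lists are themselves denser in the spans, which gives more regions to overlap with, and its part in these shares was not tested. Of the 2867, 209 (7.29%) overlapped neither list. Over the regions found in both, ranks in the 2 replicates had a Spearman's rho of 0.09 in the spans, 0.10 in the rest of IV and 0.14 on the other autosomes, with the same libraries behind all regions. To be counted there, a region needed a place in the pooled list and in both replicate lists, and such selection can lower rho. These values therefore do not measure how well the replicates repeat. Only 45 of the 2867 (1.57%) were among the 3000 highest of both replicates, against 1.92% in the rest of IV and 1.81% on the other autosomes. The thresholded list was itself drawn from these 2 replicates, so high ranks of its peaks in both are no separate support for them. Ordered by the worse of their ranks in the 2 replicates, the best 8 regions include all 5 thresholded peaks. The other 3 lay 277 bp upstream of W03F8.4 (ranks 453 and 413), 170 bp upstream of timm-17B.1, a gene of mitochondrial protein import (1089 and 867), and in an intron 4286 bp from the nearest protein-coding start, that of nhr-46, another nuclear hormone receptor gene (423 and 1244).

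**Figure D5:**
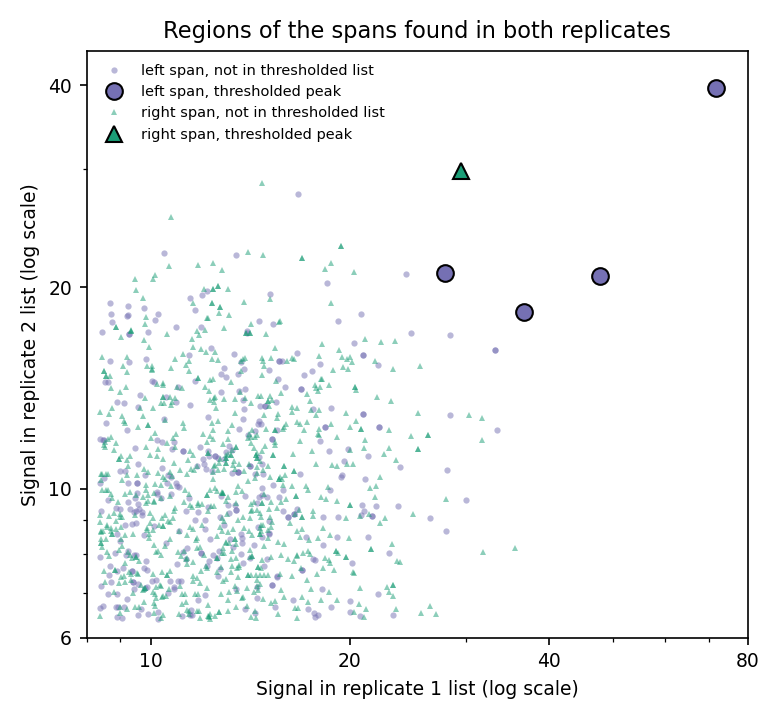
Signal in the replicate 2 list (vertical axis, log scale) against signal in the replicate 1 list (horizontal axis, log scale) for the 1132 regions of the spans that overlap a region of both lists, by span. Large outlined symbols are the 5 thresholded peaks, which lie at 27.9 to 71.7 in replicate 1 and 18.3 to 39.6 in replicate 2. They stand apart from a cloud with no visible trend, but all regions shown come from a list pooled from these 2 replicates.

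Candidate regions were also sought at the starts of genes of the piRNA pathway, most of which lie outside the spans. Of 28 genes listed, 25 were found in the annotation, and 6 of them had a candidate region assigned within 1 kb of the start, where 41.3% of the 19985 protein-coding genes had one. These 25 genes are a small set, and their difference from that share was not tested. None had a thresholded peak, and only 0.375% of protein-coding genes (75) had one, so nothing is read from this. The highest was at snpc-1.2, an SNAPc subunit paralog, with a signal of 20.1 (rank 8951). Those at henn-1, the methyltransferase of piRNA 3′ ends, and pid-3, a subunit of the PETISCO processing complex, had signals of 17.1 and 16.4. Those at csr-1, a germline Argonaute, tofu-4 and slfl-4 had 15.4, 15.2 and 13.6. No region was assigned to prg-1, the PIWI protein that binds piRNAs, to snpc-4 or prde-1, which are needed for piRNA transcription, or to hrde-1, a nuclear Argonaute. Of the 2 listed genes inside the spans, snpc-3.1 had no region and slfl-4 had 1 at rank 25787.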

How the data were processed

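ChIP-seq peak lists of eGFP-NHR-28 in L1 larvae were used, with 1 group of 2 biological replicates whose numbers come from the labels. From each replicate and a control alignment the authors derived candidate regions, likewise a pooled list from both replicates, and a thresholded list of 159 peaks by the irreproducible discovery rate, per the deposited file listing. The sources used here name no aligner, peak caller or version. The deposited signal ranks regions within 1 list, and the deposited -log10 q is the authors' value. Read depth is unknown. Nothing says how the replicates were grown, so differences between them may be technical.

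Regions, windows of 200 bp tiling the genome, Ensembl release 115 genes and the RefSeq genome (WBcel235) were joined in Python 3.11.15 with pandas 2.3.3 and scipy 1.17.1. A tile or summit counted as near a piRNA gene when the gene's start lay within 200 bp. Motifs were searched on both strands. GC weighting used steps of 2 percentage points and was chosen after seeing the data. The lists are ce11, and ce10 served as an alternative without conversion. Counts of regions by area, overlaps, motif counts and distances to gene starts were tested on simulated positions. The GC weighting, the shares and the rank correlations were not.

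The spans and the gene and motif lists were chosen with earlier results of these data known. Named regions were all thresholded peaks of the spans, the 10 highest regions, the 5 highest near a piRNA gene and the 2 on either side of each border. The regions that ranked best in both replicates were chosen after their values were seen. Genes named at a region are the nearest protein-coding start within 1 kb, noncoding starts within 200 bp and any gene whose intron holds the summit. Some nearest starts further away are named with their distance.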

Additional observations from a re-analysis of the deposited data

How the results depend on the processing

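Of 50 recomputed values for 9 results, 23 moved by less than the spread between replicates or the counting error, and 27 moved further. Among the ratios of density and of median signal, 0 changed direction. For the shares a change of direction was not defined and could not be recorded. With 1 replicate list in place of the pooled one, the density ratio was 1.39 to 1.41 against the rest of IV and 1.44 to 1.50 against the other autosomes, and the ratio of median signal to the other autosomes 1.03 to 1.05. The share among the 159 highest was 0.303% to 0.391%, the share near a piRNA gene 63.7% to 64.6% and the share with CTGTTTCA 21.9% to 22.3%. With spans redrawn as bins of at least 20 piRNA genes, the ratio to the rest of IV was 1.59, and the shares near a piRNA gene and with CTGTTTCA were 67.7% and 22.9%. Mirror windows gave a ratio of 1.51, and matched windows on the other autosomes 1.54. Weighting by GC content, added after seeing the data, gave 1.15 and 1.22, the alternative that moved the density ratios furthest. The thresholded share was 1.42% among the 3000 highest regions, which leaves fewer regions to divide by, and 0.0349% with signal above the median of the thresholded list. The share near a piRNA gene was 46.2% at 100 bp and 79.4% at 500 bp, that with CTGTTTCA 11.4% in windows of 100 bp and 37.8% in windows of 400 bp, and that near a protein-coding start 14.4% at 500 bp and 41.7% at 2 kb, as distance sets them. Regions found in both replicates were 26.5% when at least 50% of both regions had to overlap and 9.70% among the 10000 highest of each list. No paired analysis was possible because there is 1 group and no test between samples. Unknown depth limits how precisely the lower regions are ranked.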
